A study of Mus musculus with 15 samples.

Results

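Primary mouse chondrocytes, the cells that build and maintain cartilage, were treated with 1 of 3 kinase inhibitors, and the 9 arrays of the 3 treatments were pooled as 1 side against the 3 arrays of vehicle-treated cells. The groups were LY294002, UO126 and SB202190, each at 10 µM with 3 arrays, and DMSO, the vehicle, with 3 arrays, so that 12 of the 15 arrays of the series were compared. The other 3 arrays came from cells given trichostatin A (TSA), an inhibitor of histone deacetylases. All cells came from CD1 embryos at embryonic day 15.5. They were freed from tibiae, femurs and humeri, grown as a monolayer in serum-containing medium, and kept for 24 h with the agent in fresh medium that held ascorbic acid and β-glycerophosphate. The vehicle was common to all groups, and the labels do not say how many embryos went into a culture. The genes described were those past the test under each of the 3 inhibitors, with the same direction in all 3. They numbered 28 of the 11751 genes tested, of which 16 were up-regulated and 12 were down-regulated relative to DMSO.

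LY294002 blocks phosphoinositide 3-kinase (PI3K), which activates Akt downstream of growth factor receptors. UO126 inhibits MEK and with it the activation of ERK. SB202190 is known mainly as an inhibitor of the p38 MAP kinases. The sample labels give this name, while the treatment text of the same 3 arrays writes SB90 and the series design places it beside UO126 among inhibitors of the MEK and ERK route, so that the identity of this agent rests on the sample labels. PI3K, ERK and p38 signaling all take part in the proliferation and hypertrophic differentiation of growth plate chondrocytes, and all are switched on by serum growth factors and by cytokines. Transcription factors at the end of these routes include AP-1 (Fos and Jun), ETS factors, CREB, NF-kB and the FoxO factors, the last of which Akt keeps out of the nucleus.

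The starts of genes that move together can be set side by side, so the 250 bases before the start site were searched for short motifs in the RefSeq promoters of the members (mouse build GRCm38.p6). Of the 28 genes, 24 had a promoter in the table, 34 promoters in all, and the other 4 (Arc, Prg4, Has2 and Pag1) had no entry. Both strands were searched for 6 motifs, none of which can hold another: AP-1 (TGANTCA), the cAMP response element CRE (TGACGTCA), FoxO (TGTTTAC), ETS (CCGGAAG), NF-kB and the TATA box (TATAAA). Matches were found in 3 members. The AP-1 motif stood in 1 of the 34 promoters, in Il1rn, at 141 to 135 bases before the start site, and in 6.75% of all 32817 promoters. The ETS motif stood in 2 of the 34, in Sh3bgrl2 (191 to 185 bases before the start) and Ebpl (42 to 36 bases before it), and in 6.9% of all promoters. The CRE, FoxO, NF-kB and TATA motifs stood in 0 of the 34, against 1.55%, 3.16%, 1.21% and 12.4% of all promoters. The median GC content was 60.8% over the member promoters and 52.4% over all promoters. A match is a run of letters, not a measured binding site, and no match says only that these letters are not in this window.

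Printed are the 3 promoters that hold a match, which is in capitals, and those of Gjb2 and Adamts9, a gene that fell and a gene that rose by about the same size, where no motif was found. They lie at chr2:24336610-24336859 (plus strand) for Il1rn, the only one of its 3 promoters with a match, chr9:83548088-83548337 (plus strand) for Sh3bgrl2, chr14:61360446-61360695 (minus strand) for Ebpl, chr14:57104703-57104952 (minus strand) for Gjb2 and chr6:92943535-92943784 (minus strand) for Adamts9. Each is written 5′ to 3′ on the strand of its gene.
Il1rn: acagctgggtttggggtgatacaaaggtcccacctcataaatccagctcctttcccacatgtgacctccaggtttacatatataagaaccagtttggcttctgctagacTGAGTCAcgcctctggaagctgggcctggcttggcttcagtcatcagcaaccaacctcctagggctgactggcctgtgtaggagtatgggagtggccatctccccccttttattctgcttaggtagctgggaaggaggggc
Sh3bgrl2: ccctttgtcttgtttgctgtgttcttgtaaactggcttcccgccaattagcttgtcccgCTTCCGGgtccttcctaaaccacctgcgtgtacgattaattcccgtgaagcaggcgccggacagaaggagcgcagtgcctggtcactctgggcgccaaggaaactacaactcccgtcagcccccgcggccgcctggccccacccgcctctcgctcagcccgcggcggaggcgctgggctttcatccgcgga
Ebpl: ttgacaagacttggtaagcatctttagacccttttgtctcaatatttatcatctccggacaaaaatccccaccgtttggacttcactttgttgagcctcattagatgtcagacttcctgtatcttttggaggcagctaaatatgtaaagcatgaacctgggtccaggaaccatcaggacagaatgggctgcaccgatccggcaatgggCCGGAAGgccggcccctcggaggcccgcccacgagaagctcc
Gjb2: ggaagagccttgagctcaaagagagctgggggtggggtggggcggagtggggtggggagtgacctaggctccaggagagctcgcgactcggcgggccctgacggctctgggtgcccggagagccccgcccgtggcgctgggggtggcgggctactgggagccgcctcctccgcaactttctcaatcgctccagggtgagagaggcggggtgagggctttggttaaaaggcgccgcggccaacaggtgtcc
Adamts9: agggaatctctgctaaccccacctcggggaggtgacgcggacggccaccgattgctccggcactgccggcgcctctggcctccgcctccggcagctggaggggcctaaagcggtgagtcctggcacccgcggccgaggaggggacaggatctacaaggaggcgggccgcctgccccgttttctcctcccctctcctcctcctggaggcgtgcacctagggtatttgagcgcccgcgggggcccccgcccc

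The median of the deposited MAS5 signals ran from 29.8 to 39.96 over the 15 arrays. A signal of 50, which a gene had to reach as a mean in at least 1 group to be tested, was met by 40.9% to 44.96% of the probe sets of an array. The number of arrays limits the precision, and p-values measure the spread between these arrays. Genes of cartilage were high on both sides: the type II collagen gene Col2a1 had a signal of 5668 ± 805 over the 9 inhibitor arrays and 5700 ± 1582 over the 3 DMSO arrays (SD). Of the markers of other cells, those of macrophages and leukocytes (8 of 15 tested) had a summed signal of 827 to 1084 per inhibitor array, against 936 to 1082 per DMSO array. For skeletal muscle markers (14 of 16 tested) the sum was 1105 to 4029 in inhibitor-treated cultures, against 1372 to 3121 in DMSO cultures. The fibroblast collagen gene Col1a1 had a signal of 4660 ± 822 on the inhibitor arrays and 4726 ± 1270 on the DMSO arrays (SD). The part of these cells in the results was not tested. In a culture of mixed cells, fewer cells of a type and less RNA per cell cannot be told apart.

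With the 3 inhibitor groups pooled, 232 genes (1.97% of those tested) were up-regulated and 138 (1.17%) were down-regulated relative to DMSO by limma's moderated test with Benjamini-Hochberg adjusted p under 0.05, and 2197 genes had an unadjusted p under 0.05. Of these 370 genes, 341 had the same sign of change under each inhibitor, 221 of them higher and 120 lower, and 29 had mixed signs. Changes were small for most: 20 of the 341 genes passed a 2-fold change, 7 of them higher and 13 lower. Some of these had low signals on both sides. Gldc, Cd40 and Fchsd1 lay under 50 on every inhibitor and DMSO array. They were tested only because their TSA means reached 50 (83.5, 52.2 and 63.3). In the inhibitors' own comparisons with DMSO, 1113 genes passed under LY294002, 405 under UO126 and 414 under SB202190. The 28 genes that passed under all 3 in the same direction made up 0.136% (higher) and 0.102% (lower) of the genes tested. The 3 comparisons share the same 3 DMSO arrays, so this count is a description of these arrays, and all values below are set against the same controls. In all 28, the 9 inhibitor arrays lay on one side of the 3 DMSO arrays, as they did in 3.33% of all genes (391). That follows from how the members were chosen, and nothing is read from it.

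**Figure D1:**
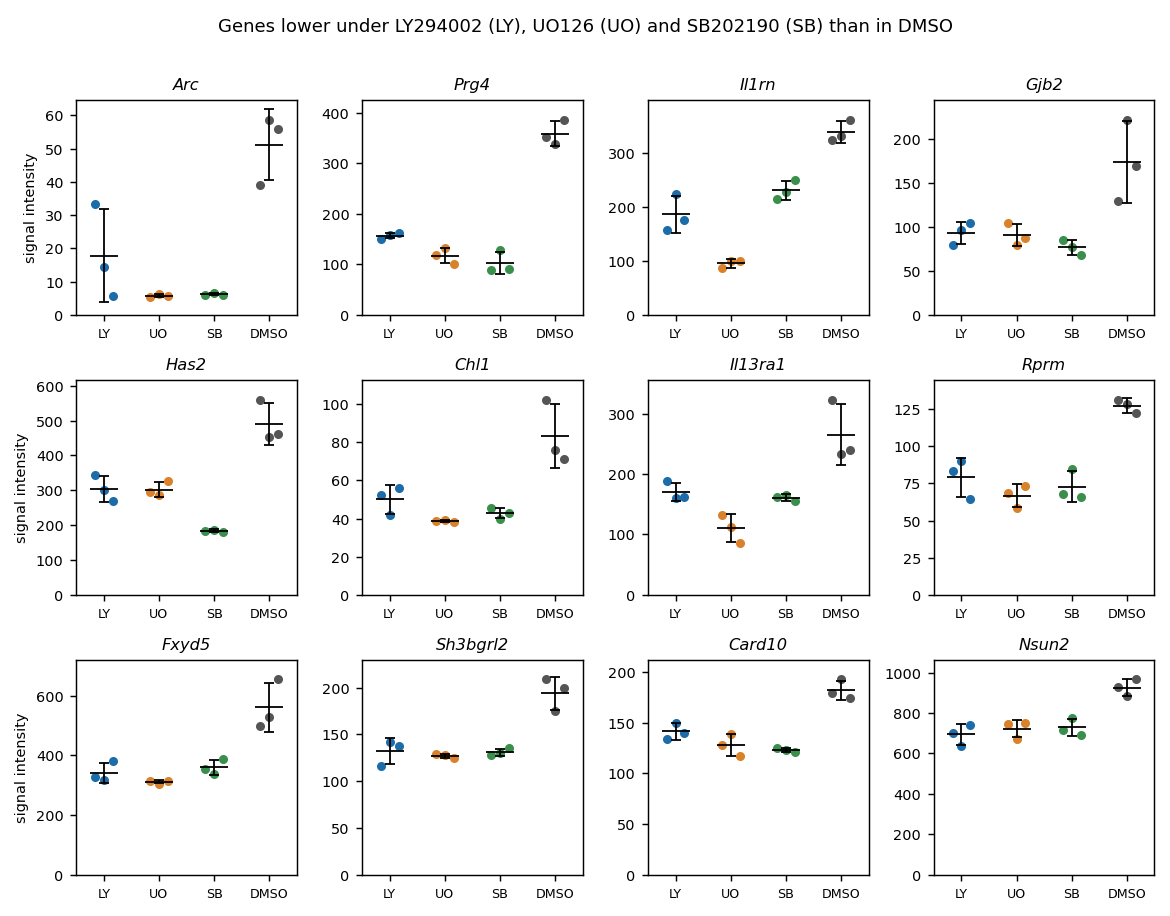
Signal intensity on each array (points) for the 12 genes called lower under all 3 inhibitors, with the group mean and SD (bars, n = 3 arrays per group) for LY294002 (LY), UO126 (UO), SB202190 (SB) and DMSO. In every panel the 9 inhibitor points lie under the 3 DMSO points, and the vertical axes are linear and start at 0.

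Prg4 and Has2 fell under all 3 inhibitors. Prg4 encodes lubricin, the glycoprotein that lubricates joint surfaces. Its signals were 151, 159 and 162 in LY294002 cultures, 119, 132 and 102 in UO126 cultures and 89.2, 129 and 90.7 in SB202190 cultures, against 352, 338 and 386 in DMSO cultures. The highest inhibitor array was thus below the lowest DMSO array by more than the spread within any kinase inhibitor or DMSO group. Pooled, Prg4 was 2.91-fold lower (log2 change -1.54 ± 0.18, SE, adjusted p = 0.000425 by limma), and the change was -1.19 ± 0.22 under LY294002, -1.62 ± 0.22 under UO126 and -1.82 ± 0.22 under SB202190. Has2, the main hyaluronan synthase of cartilage, had signals of 344, 300.1 and 268 under LY294002, 294, 287 and 325 under UO126 and 184, 187 and 179 under SB202190, against 559.9, 451 and 461 in DMSO cultures. It fell by 0.93 ± 0.09 on the log2 scale pooled (adjusted p = 6.81e-05), and the SB202190 arrays were the lowest. A further Has2 probe set fell by 0.84 ± 0.11 pooled (adjusted p = 0.000979). The test of Has2 among the inhibitors is given further on.

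Of 2 genes for interleukin handling, Il1rn encodes the interleukin-1 receptor antagonist, which blocks interleukin-1, and Il13ra1 encodes a receptor chain for interleukins 4 and 13. Il1rn signals were 158, 225 and 176 under LY294002, 86.6, 101 and 99.85 under UO126 and 215, 228 and 250.5 under SB202190, against 324, 332 and 362 in DMSO cultures. The UO126 arrays were lowest and did not overlap with the arrays of the other treatments, while the ranges of LY294002 and SB202190 overlapped. The pooled log2 change was -1.09 ± 0.11 (adjusted p = 0.000196), and the other 2 Il1rn probe sets tested changed by -1.53 ± 0.23 and -0.81 ± 0.19 (adjusted p = 0.00345 and 0.0381). Il13ra1 signals were 188, 160.4 and 162 under LY294002, 133, 113 and 86.1 under UO126 and 162, 165 and 155 under SB202190, against 323, 233 and 239 in DMSO cultures. It was 1.82-fold lower pooled (log2 change -0.87 ± 0.13, adjusted p = 0.00345). Of its 4 other probe sets, all had negative changes under each inhibitor and 2 passed the pooled test (-1.28 ± 0.22 and -0.93 ± 0.14). With the 9 arrays taken as 1 group, which counts differences among the inhibitors as spread, the adjusted p was 0.13 for Il1rn, 0.0781 for Il13ra1 and 0.0541 for Has2.

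The falls included genes of cell contact and of the cell membrane. Gjb2 encodes the gap junction protein connexin 26, with signals of 79.3, 96.3 and 104.5 under LY294002, 105, 80.03 and 87.7 under UO126 and 84.9, 76.9 and 68.7 under SB202190, against 129, 222 and 169.5 in DMSO cultures. The DMSO arrays spread most, and the pooled change of -0.97 ± 0.15 (adjusted p = 0.0039) was nearly the same size under each inhibitor (-0.87, -0.91 and -1.15 under LY294002, UO126 and SB202190, each ± 0.19). Fxyd5 encodes dysadherin, a regulator of the sodium pump that weakens cell adhesion. Its signals ran from 306 to 388 (median 327) on the 9 inhibitor arrays, against 499, 528 and 654 on the DMSO arrays, a pooled change of -0.73 ± 0.09 (adjusted p = 0.000954). Prg4, Has2 and Fxyd5 were the 3 members that passed under all 3 inhibitors whichever of the 15 arrays was left out. Chl1, a neural cell adhesion molecule of the L1 family, lay between 38.2 and 56.2 on the inhibitor arrays, against 102, 76.2 and 71.2 on the DMSO arrays (-0.92 ± 0.17, adjusted p = 0.00992), and its adjusted p without DMSO array 1 was 0.0538.

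The largest change was that of Arc, an immediate early gene of neurons whose product acts at synapses, but at signals near the background. Arc signals were 33.4, 14.5 and 5.84 under LY294002, 5.51, 6.21 and 5.73 under UO126 and 6.06, 6.69 and 6.14 under SB202190, against 39.0, 58.7 and 56.0 in DMSO cultures. The LY294002 arrays spread more than the other treated arrays, and the highest of them came close to the lowest DMSO array. The pooled log2 change was -2.65 ± 0.40 (adjusted p = 0.00345), and with signals under 50 set to 50 the adjusted p was 0.815. Arc and Chl1 were the 2 members with a mean under 50 over the inhibitor arrays.

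The other 4 members that fell have roles inside the cell. Rprm encodes reprimo, a p53-induced inhibitor of entry into mitosis, and had signals of 58.2 to 89.9 (median 68.5) on the inhibitor arrays, against 131, 129 and 122 on the DMSO arrays (-0.82 ± 0.13, adjusted p = 0.00395). Card10 encodes a scaffold that links receptors to NF-kB, with signals of 117 to 150.1 (median 128) on the inhibitor arrays, against 179, 193 and 174 on the DMSO arrays (-0.48 ± 0.08, adjusted p = 0.00587). Sh3bgrl2, which encodes a small thioredoxin-fold protein, had 117 to 142 (median 129) on the inhibitor arrays, against 209, 174.5 and 199 on the DMSO arrays. Its change was -0.56 ± 0.11 under LY294002, -0.61 ± 0.11 under UO126 and -0.56 ± 0.11 under SB202190. Its other probe set did not pass the pooled test (-0.10 ± 0.18, adjusted p = 0.849). Nsun2, an RNA cytosine methyltransferase, had the smallest fall, with 639 to 776 (median 718) on the inhibitor arrays, against 929, 883 and 966 on the DMSO arrays (-0.37 ± 0.06, adjusted p = 0.00742, and 0.0513 without DMSO array 3).

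Outside the members, 2 genes that missed the test under SB202190 came next among the falls, in a ranking by the smallest of the 3 changes with signals under 50 set to 50, over genes with a mean of 100 or more on the higher side and no overlap between inhibitor and DMSO arrays. U90926, named here only by its symbol, had 129.6, 96.5 and 110.5 under LY294002, 67.0, 14.9 and 26.4 under UO126 and 156, 91.7 and 116 under SB202190, against 319.6, 266 and 344 in DMSO cultures. Its pooled change was -2.07 ± 0.30 (adjusted p = 0.00266), with an adjusted p of 0.0596 under SB202190. Adam8, a membrane metalloprotease, had 47.9 to 100.1 on the inhibitor arrays, against 109, 135 and 148 on the DMSO arrays (-0.89 ± 0.17, adjusted p = 0.0112, and 0.109 under SB202190). Its pooled call was lost without DMSO array 2 or DMSO array 3, with adjusted p up to 0.0809.

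**Figure D2:**
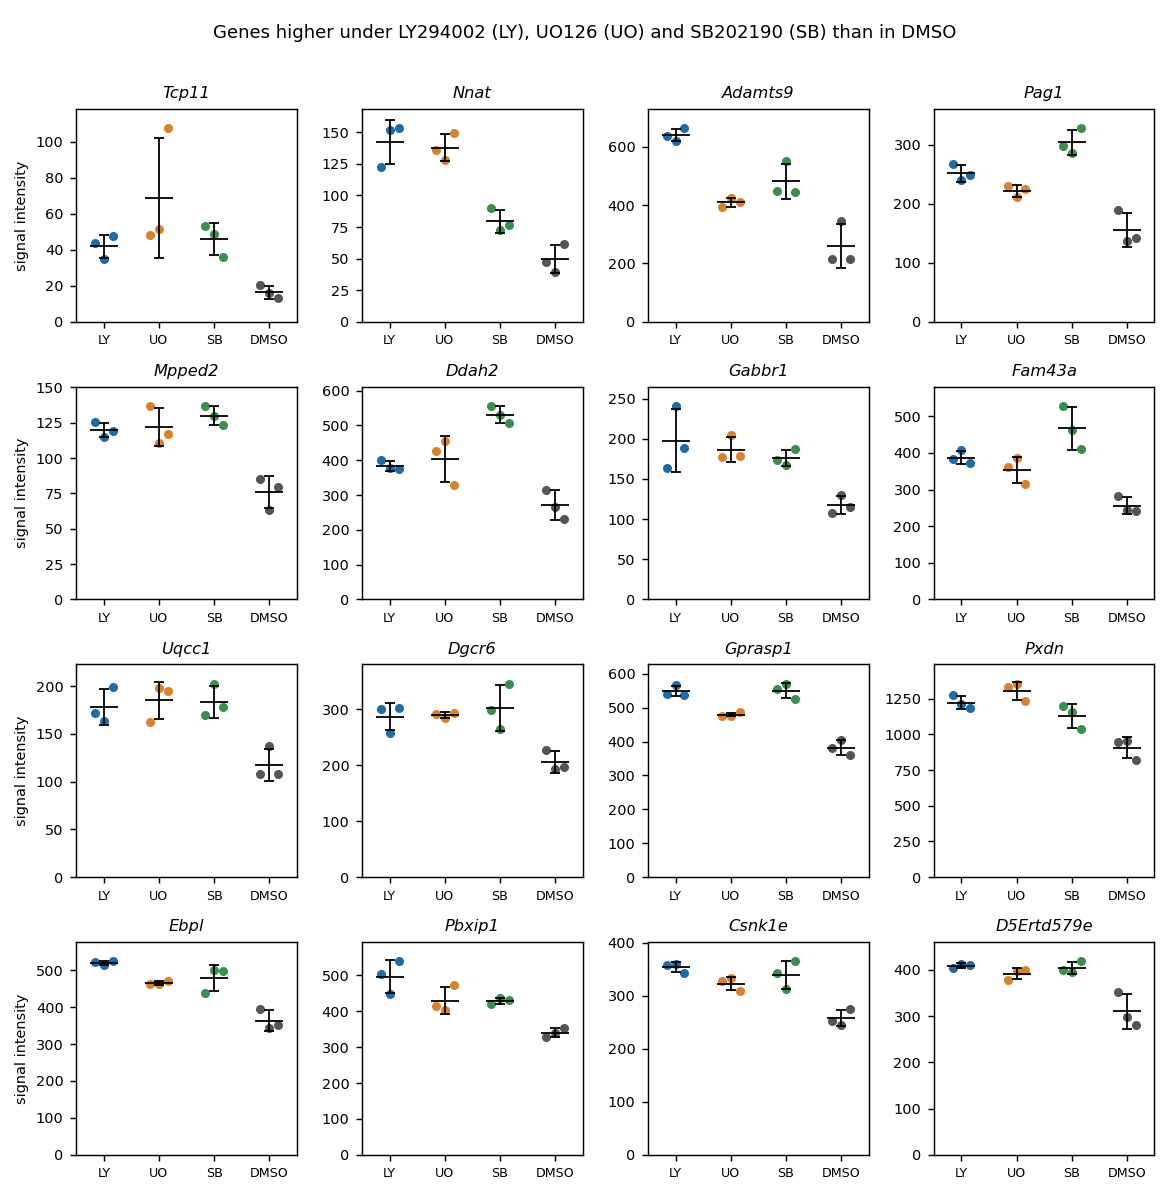
Signal intensity on each array (points) for the 16 genes called higher under all 3 inhibitors, with the group mean and SD (bars, n = 3 arrays per group) for LY294002 (LY), UO126 (UO), SB202190 (SB) and DMSO. In every panel the 9 inhibitor points lie above the 3 DMSO points, and the vertical axes are linear and start at 0.

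Among the genes that rose, Adamts9 and Pxdn act on the matrix. Adamts9 encodes a secreted metalloprotease that can cut aggrecan, the main proteoglycan of cartilage. Its signals were 638, 621 and 663 under LY294002, 392, 424 and 412 under UO126 and 448, 552 and 445 under SB202190, against 217, 345 and 216 in DMSO cultures. LY294002 arrays were the highest, and DMSO array 2 came closest to the treated arrays. The pooled log2 change was 0.98 ± 0.13 (adjusted p = 0.00126), with 1.34 ± 0.16 under LY294002, 0.69 ± 0.16 under UO126 and 0.92 ± 0.16 under SB202190. A weaker probe set of Adamts9 did not pass the pooled test (0.13 ± 0.41, adjusted p = 0.916). With its probe sets averaged, Adamts9 did not pass the pooled test either. Pxdn encodes peroxidasin, which crosslinks type IV collagen in basement membranes, and had 1037 to 1355 (median 1211) on the inhibitor arrays, against 944.5, 952 and 821 on the DMSO arrays (0.43 ± 0.07, adjusted p = 0.00345).

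Nnat, Gabbr1 and Gprasp1 rose. Nnat encodes neuronatin, a small membrane protein of developing neurons that is expressed from the paternal allele. Its signals were 122, 152 and 153 under LY294002, 136, 128 and 149.5 under UO126 and 89.7, 72.2 and 76.3 under SB202190, against 47.2, 39.8 and 61.8 in DMSO cultures. The SB202190 arrays lay between the other treated arrays and DMSO. Nnat was 2.37-fold higher pooled (log2 change 1.24 ± 0.13, adjusted p = 0.000196). Gabbr1, a subunit of the GABA-B receptor, had 164 to 241 (median 178) on the inhibitor arrays, against 108, 130.04 and 115 on the DMSO arrays, with changes of 0.74 ± 0.14 under LY294002, 0.67 ± 0.14 under UO126 and 0.59 ± 0.14 under SB202190. Gprasp1, a sorting protein for G protein-coupled receptors, had 477 to 571 (median 539) on the inhibitor arrays, against 382, 404 and 361 on the DMSO arrays (0.46 ± 0.06, adjusted p = 0.00126). The other Gabbr1 probe set had a pooled change of 0.38 ± 0.12 (adjusted p = 0.129).

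Several members that rose take part in signaling. Pag1 encodes a membrane adaptor that recruits Csk, the kinase that holds Src family kinases inactive. Pag1 signals were 267, 239 and 248 under LY294002, 229, 211 and 224.5 under UO126 and 298, 285 and 327 under SB202190, against 189, 137 and 142 in DMSO cultures, a pooled change of 0.73 ± 0.10 (adjusted p = 0.00126). Csnk1e, casein kinase 1 epsilon of the circadian clock and the Wnt pathway, had 309 to 365 (median 343) on the inhibitor arrays, against 253, 245 and 275 on the DMSO arrays (0.39 ± 0.07, adjusted p = 0.00645). Its other probe sets did not pass (0.24 ± 0.11 and -0.19 ± 0.33). Pbxip1, which binds PBX homeodomain factors, had 404 to 539 (median 437) on the inhibitor arrays, against 328, 340.4 and 353 on the DMSO arrays (0.40 ± 0.07, adjusted p = 0.00742). Its other probe set did not pass the pooled test (0.15 ± 0.10, adjusted p = 0.462). Ddah2, which breaks down methylated arginines that inhibit nitric oxide synthases, had 399.6, 377 and 374 under LY294002, 426, 454 and 330.0 under UO126 and 555.5, 529 and 507 under SB202190, against 315, 267 and 232 in DMSO cultures. Its pooled change was 0.69 ± 0.11 (adjusted p = 0.00518). With the 9 arrays as 1 group the adjusted p was 0.0779 for Ddah2 and 0.0713 for Pbxip1.

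The rest of the rising genes have no common role. Uqcc1, an assembly factor of mitochondrial complex III, changed by 0.60 ± 0.13, 0.66 ± 0.13 and 0.65 ± 0.13 under LY294002, UO126 and SB202190, with 163 to 202 (median 178) on the inhibitor arrays, against 108, 137 and 108 on the DMSO arrays. Its other probe set did not pass (0.07 ± 0.10, adjusted p = 0.784). Mpped2, a metallophosphoesterase, had 111 to 137 (median 123) on the inhibitor arrays, against 85.2, 63.3 and 79.3 on the DMSO arrays (0.71 ± 0.13, adjusted p = 0.0111, and 0.0835 without DMSO array 2). The other Mpped2 probe set did not pass the pooled test (0.34 ± 0.13, adjusted p = 0.207). Ebpl, a relative of the sterol isomerase Ebp, had 439 to 524 (median 499) on the inhibitor arrays, against 396, 343 and 351 on the DMSO arrays (0.43 ± 0.06, adjusted p = 0.00345). Fam43a had 316 to 528 (median 386) against 283, 245 and 240.0 in DMSO cultures (0.64 ± 0.09, adjusted p = 0.00179). Dgcr6 (0.51 ± 0.09, adjusted p = 0.00826) and D5Ertd579e (0.38 ± 0.07, adjusted p = 0.0108) also rose, and lost the pooled call without DMSO array 2 or DMSO array 3, with adjusted p up to 0.0549 and 0.0817. With the 9 arrays as 1 group D5Ertd579e had an adjusted p of 0.0535. Tcp11, a testis gene with a role in sperm, showed the largest rise at low signals, with 34.8 to 107 (median 48.1) on the inhibitor arrays, against 20.2, 15.98 and 12.97 on the DMSO arrays (1.62 ± 0.25, adjusted p = 0.00357). With signals under 50 set to 50 its adjusted p was 0.786.

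**Figure D3:**
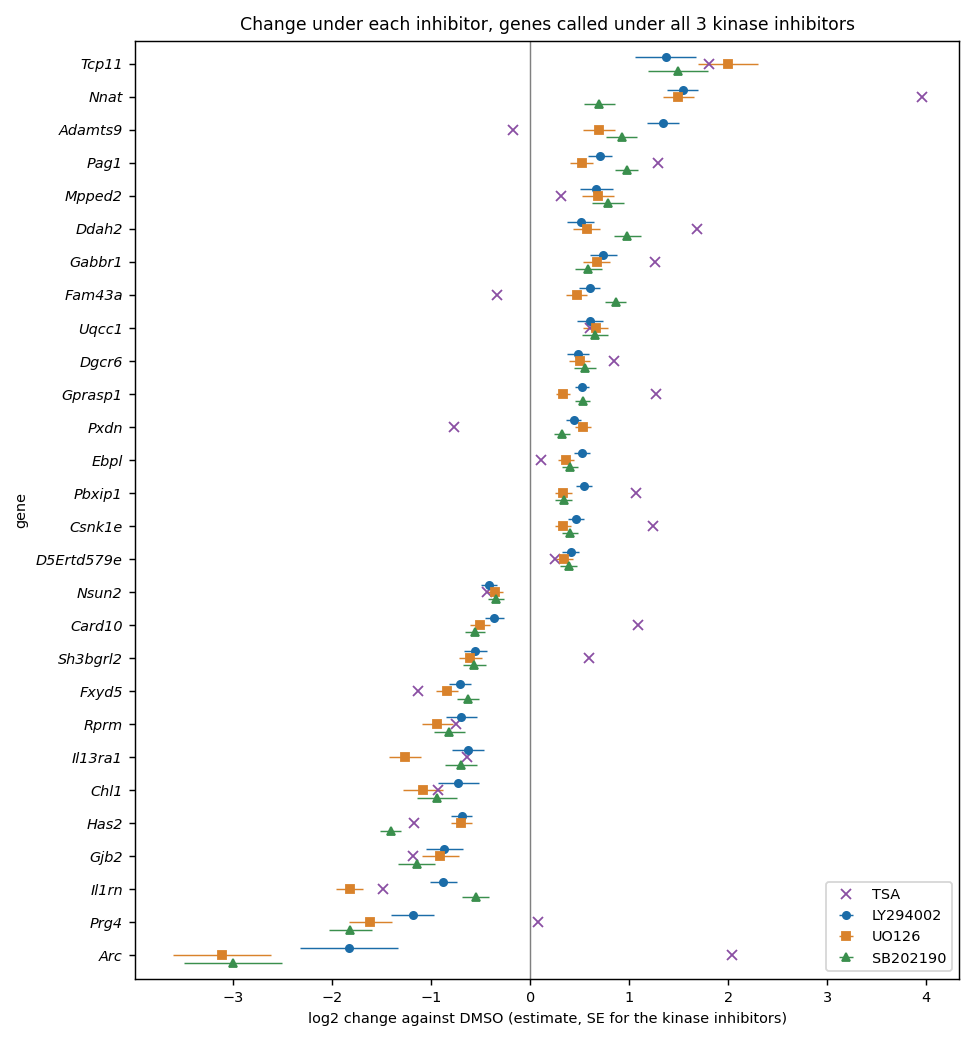
Log2 change against DMSO for the 28 genes under LY294002 (circles), UO126 (squares) and SB202190 (triangles), with SE bars (n = 3 arrays per group), and under TSA (crosses), ordered by the pooled change. The kinase inhibitor symbols lie on 1 side of 0 for each gene, from Arc at -2.65 to Tcp11 at 1.62 pooled, while the TSA crosses lie on both sides within the genes that rose and within those that fell.

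The inhibitors were compared among themselves by a contrast of their own 9 arrays, with the spread estimated over all 15 arrays, DMSO included. Of the 28 members, 6 differed among LY294002, UO126 and SB202190 by limma's moderated F test (adjusted p under 0.05), and so did 15.2% of all genes tested (1788). Has2 changed by -1.41 ± 0.11 under SB202190 and by -0.69 ± 0.11 and -0.70 ± 0.11 under LY294002 and UO126 (adjusted p = 0.000412). Il1rn changed by -1.83 ± 0.14 under UO126, by -0.88 ± 0.14 under LY294002 and by -0.55 ± 0.14 under SB202190 (adjusted p = 7.39e-05), and Il13ra1 likewise had its largest change under UO126 (-1.27 ± 0.16, adjusted p = 0.0251). Nnat rose least under SB202190 (0.70 ± 0.16, against 1.54 ± 0.16 under LY294002 and 1.496 ± 0.16 under UO126, adjusted p = 0.00302). Adamts9 and Pag1 had adjusted p of 0.0323 and 0.0457. The change was largest under LY294002 for 8 members, under UO126 for 10 and under SB202190 for 10. The 22 members that missed this test are not thereby shown to respond alike. Of the wider set of 341 genes, 162 differed among the inhibitors.

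TSA was compared with the pooled inhibitors by a contrast in which the DMSO mean does not enter, with the same estimate of the spread. The signals of 20 of the 28 members differed between the kinase inhibitors and TSA, against 65.2% of all genes (7659). Prg4 had 242, 523 and 425 in TSA cultures, and the log2 difference of the kinase inhibitors minus TSA was -1.62 ± 0.18 (adjusted p = 1.15e-06). Against DMSO, TSA moved 58.9% of all genes (6926), and since that comparison uses the same DMSO arrays, its values are only set beside those of the kinase inhibitors. Of the 16 members that rose, 11 were called higher and 2 lower under TSA against DMSO. Of the 12 that fell, 8 were called lower and 3 higher. The members were chosen against the same DMSO arrays, so these counts are not read as agreement. Arc, Card10 and Sh3bgrl2, which the kinase inhibitors lowered, had TSA changes of 2.03 ± 0.50, 1.09 ± 0.10 and 0.60 ± 0.11 on the log2 scale. Pxdn and Fam43a, which the kinase inhibitors raised, had TSA changes of -0.77 ± 0.08 and -0.34 ± 0.11. Nnat reached 840.1, 722 and 717 in TSA cultures. For Gjb2, Rprm and Chl1 the difference between the kinase inhibitors and TSA did not pass (adjusted p = 0.238, 0.686 and 0.943), which does not show that their signals were equal.

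The threshold divided genes with similar adjusted p-values. Just inside it, the largest of the 3 adjusted p-values was 0.0441 for Csnk1e, 0.0475 for D5Ertd579e and 0.0477 for Pbxip1. Just outside it were Fam234a (0.0503, pooled log2 change 0.45), Wbp1 (0.0517, 0.51) and Gjb5 (0.0537, -1.07), the last a connexin gene like Gjb2. Signals of Gjb5 were low, with a mean of 25.9 on the inhibitor arrays and 53.4 on the DMSO arrays. Its means under LY294002, UO126, SB202190 and TSA (22.3, 28.4, 27.1 and 48.8) lay under the minimum of the signal filter. Gjb5 was thus tested only because of its DMSO mean, the group in which it was high. Of the members, 11 had other tested probe sets, 16 in all, of which 15 had the sign of the gene's main probe set in the pooled change and 6 passed the pooled test.

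**Figure D4:**
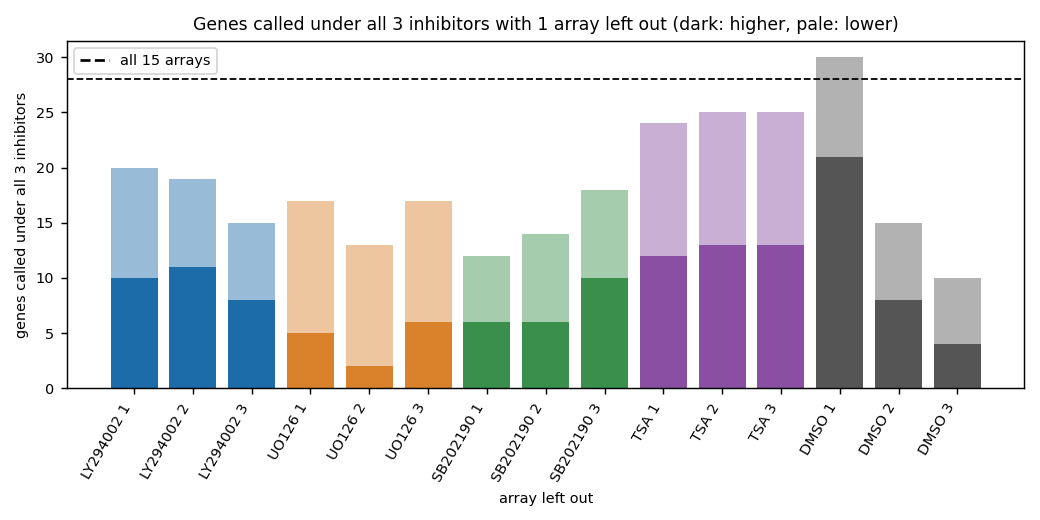
Number of genes called in the same direction under all 3 inhibitors when 1 array is left out (bars, dark for higher and pale for lower), with the 28 genes of all 15 arrays as a dashed line. The count ranges from 10 without DMSO array 3 to 30 without DMSO array 1.

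The set of genes called under all 3 inhibitors depended on single arrays. Without DMSO array 1, 2 or 3, the count was 30, 15 and 10 genes, and 15, 10 and 6 of the 28 members remained. Without an LY294002 array, 18, 19 and 14 of the 28 remained (arrays 1, 2 and 3). Without a UO126 array 15, 10 and 15 remained, without an SB202190 array 12, 14 and 17, and without a TSA array, which bears on the shared spread only, 22, 24 and 24. Of the 28, 23 kept the pooled call in all 15 fits, and Chl1, Nsun2, Mpped2, Dgcr6 and D5Ertd579e lost it as given above. The members had been chosen for passing under all 3 inhibitors, so nothing is read from this. Over all genes, the pooled count fell from 370 to 120 without DMSO array 3. In the fit with the 9 arrays as 1 group 22 of the 28 passed.

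Of 21 genes for cartilage matrix and Sox factors, which make chondrocytes what they are, 0 passed the pooled limma test and 3 had an unadjusted p under 0.05 (median log2 change 0.145, against 0.012 over all genes tested), and the medians by inhibitor were 0.205 under LY294002, 0.366 under UO126 and -0.294 under SB202190. For 14 genes of hypertrophy and mineralization the median log2 changes were -0.012, 0.563 and -0.579 under LY294002, UO126 and SB202190. Of these 14 genes 1 fell in the pooled test, Ank, which exports pyrophosphate, an inhibitor of mineral. It averaged 595 ± 209.7 on the inhibitor arrays and 842 ± 67.4 on the DMSO arrays (SD), with changes of -0.55, -1.18 and -0.01 under LY294002, UO126 and SB202190. Col10a1, the collagen of hypertrophic chondrocytes, spread widely within groups, with 196 to 2061 on the inhibitor arrays, against 219.8 to 1049 on the DMSO arrays. Among 18 matrix proteases and inhibitors, Adamts9 and Adamts5 rose and Adam8 fell. Adamts5, the main aggrecanase of mouse cartilage, had 664, 724 and 729 under LY294002, 661, 565 and 598 under UO126 and 566, 524 and 482 under SB202190, against 501.5, 440.1 and 422 in DMSO cultures. Its SB202190 arrays overlapped with DMSO, and the pooled call (0.42 ± 0.09, adjusted p = 0.0227) was lost without DMSO array 2 or DMSO array 3, with adjusted p up to 0.129. With probe sets averaged per gene, 0 proteases rose and 1 fell, so the calls of Adamts9 and Adamts5 were lost.

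Among the genes that the study followed up, F13a1, the gene of coagulation factor XIII A chain, fell in the pooled test, with 144, 123 and 125 under LY294002, 154, 172 and 141 under UO126 and 71.6, 63.9 and 62.6 under SB202190, against 197, 233 and 204 in DMSO cultures. The pooled change was -0.94 ± 0.13 (adjusted p = 0.00186), and it missed the test under UO126 (adjusted p = 0.195). Phlda2, an imprinted gene that restrains growth, did not pass the pooled test (-0.69 ± 0.19, adjusted p = 0.0738), with changes of -1.499, 0.05 and -0.61 under LY294002, UO126 and SB202190. Nr4a1, an early response nuclear receptor, did not pass either (0.96 ± 0.50, adjusted p = 0.345) and had 764, 1020 and 239 on the 3 LY294002 arrays. The study chose these genes partly on the LY294002 and DMSO arrays of this series, so their direction here is not independent evidence. It also used gene set enrichment and arrays of growth plate zones. By RT-PCR it reported F13a1 and Phlda2 lower and Nr4a1 and Adamts5 higher under LY294002. It further reported less factor XIIIa protein under LY294002, by immunohistochemistry of cultured tibiae and by western blots of monolayer and tibia cultures. Those claims concern LY294002 alone, and the pooled test of 3 inhibitors does not bear on them directly.

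Targets of the inhibited pathways were counted in lists, and the counts here and in the next paragraph stand beside 1.97% of all genes that rose and 1.17% that fell (median log2 change 0.012). The 28 genes past the pooled test that are named from any gene list or ranked after the members all missed it with the 9 arrays as 1 group (adjusted p = 0.0604 to 0.718 by limma). Of 20 growth factors and ERK outputs 0 rose and 1 fell, Fosl1, the AP-1 member Fra-1, at 171 ± 56.0 on the inhibitor arrays and 326 ± 44.9 on the DMSO arrays (SD, pooled log2 change -0.99 ± 0.11, adjusted p = 0.000425). It changed by -1.32, -1.21 and -0.42 under LY294002, UO126 and SB202190, and differed among them (adjusted p = 0.000991). The median log2 changes of these 20 genes were 0.033, -0.548 and -0.003 in the same order. Of 25 immediate early genes 1 rose, Klf2, a transcription factor, with changes of 1.47, 0.88 and 0.32 under LY294002, UO126 and SB202190 (pooled 0.89 ± 0.12, adjusted p = 0.00193). Of 22 FoxO-regulated genes 1 rose, Insr, the insulin receptor gene (0.41 ± 0.09, adjusted p = 0.0205), and of 28 autophagy and lysosome genes 1 rose, Ulk1, the kinase that starts autophagy (0.58 ± 0.12, adjusted p = 0.0172). The Insr call was lost without DMSO array 2 or DMSO array 3 and the Ulk1 call without DMSO array 1 or DMSO array 2, with adjusted p up to 0.0975 and 0.0946. Of 14 inflammatory genes Il1rn fell and the chemokine gene Cxcl12 rose (0.53, 0.01 and 0.73 under LY294002, UO126 and SB202190). Of 11 prostaglandin genes 1 fell, Hpgd, which breaks prostaglandins down (-2.02, -0.47 and -0.82 under LY294002, UO126 and SB202190, pooled -1.10 ± 0.11, adjusted p = 0.000196).

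Genes of secreted growth factor antagonists passed in both directions. Of 14 Wnt targets and antagonists, the secreted antagonist genes Dkk3 and Frzb rose and Wif1 fell (pooled 0.40 ± 0.09, 0.52 ± 0.11 and -0.74 ± 0.13). Frzb changed by 0.47, 1.12 and -0.03, and Wif1 by 0.02, -0.64 and -1.60, under LY294002, UO126 and SB202190. Of 24 TGF-beta and BMP genes, the BMP antagonist gene Chrdl1 rose, mainly under UO126 (1.27), and the activin antagonist gene Fst fell, mainly under SB202190 (-1.04). Of 10 genes of the insulin-like growth factor axis 1 fell, Igfbp6 (-0.57 ± 0.11, adjusted p = 0.0118), with a change of 0.22 under SB202190. Without DMSO array 2 the calls of Dkk3, Frzb, Wif1, Chrdl1 and Igfbp6 were lost, and without DMSO array 3 those of Dkk3, Frzb, Chrdl1 and Fst. Without DMSO array 1 those of Dkk3 and Igfbp6 were lost, and without SB202190 array 2 that of Dkk3, with adjusted p up to 0.128 in these fits. In the glycolysis and hypoxia list the entry Gpi1 was matched to Pigq through an older symbol. Pigq is not a glycolysis gene, and Gpi1 was not tested under its own symbol. Of the 26 genes tested in this list, Bnip3 rose and the glucose transporter gene Slc2a3 and the mTOR inhibitor gene Ddit4 fell (0.45 ± 0.11, -0.46 ± 0.11 and -0.82 ± 0.16). Without DMSO array 2 or DMSO array 3 all 3 of these calls were lost (adjusted p up to 0.135). Bnip3 lost its call also without DMSO array 1, LY294002 array 2 or 3, or SB202190 array 1 or 2. Slc2a3 lost it without any array except LY294002 array 2, UO126 array 1 and SB202190 array 1. In the lists of cholesterol biosynthesis (20 genes), fatty acid synthesis (17), amino acid response (27), S phase (28), G2 and mitosis (25) and G1 regulators (16), 0 genes passed the pooled limma test in either direction. In that order 4, 3, 3, 3, 5 and 3 genes had an unadjusted p under 0.05. The pooled test does not show changes under a single inhibitor. The median log2 change for cholesterol biosynthesis was -0.415 under LY294002, 0.124 under UO126 and 0.039 under SB202190. For fatty acid synthesis it was -0.311, 0.017 and 0.128 in the same order. Of 16 contractile genes 1 passed, Myl9, whose change was 0.38 and 0.96 under LY294002 and UO126 and -0.40 under SB202190. That call was lost without any of the 3 DMSO arrays and without LY294002 array 2, LY294002 array 3 or SB202190 array 2, with adjusted p up to 0.12.

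**Figure D5:**
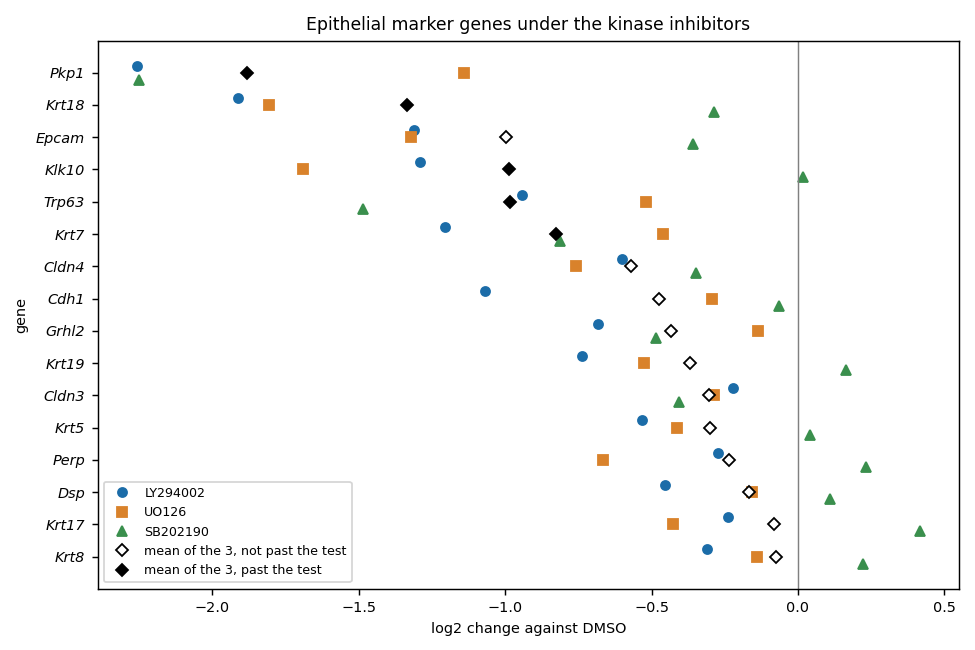
Log2 change against DMSO of the 16 tested epithelial marker genes under LY294002 (circles), UO126 (squares) and SB202190 (triangles), with the mean of the 3 as diamonds, filled where the pooled test was passed. All 16 means lie below 0, and 5 are filled, while several SB202190 triangles lie above 0.

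The list with the most falls held markers of epithelium, a cell type that the sample could hold besides chondrocytes. Of 23 markers 22 were on the array and 16 were tested, and 0 rose and 5 fell, against 1.17% of all genes that fell (median log2 change -0.455). Their summed signal was 1213 to 1851 in LY294002 cultures, 1218 to 1515 in UO126 cultures and 1950 to 3349 in SB202190 cultures, against 2378 to 3354 in DMSO cultures, so that only SB202190 overlapped with DMSO. Krt18, a simple epithelial keratin, changed by -1.91, -1.81 and -0.29 under LY294002, UO126 and SB202190 (pooled -1.34 ± 0.10, adjusted p = 7.13e-06). Krt7, another keratin, changed by -1.20, -0.46 and -0.81 (pooled adjusted p = 0.00371), and Pkp1, a desmosome protein, by -2.26, -1.14 and -2.25 (pooled adjusted p = 0.00505). Trp63, the p63 transcription factor of stratified epithelium, changed by -0.94, -0.52 and -1.48 (pooled adjusted p = 0.0169), and the protease gene Klk10 by -1.29, -1.69 and 0.02 (pooled adjusted p = 0.0104, and 0.0814 without DMSO array 3). Epcam, with a mean of 423 on the inhibitor arrays and 848 on the DMSO arrays, did not pass (-0.996 ± 0.74), and Cdh1 had means of 11.9 and 15.6. The keratin genes Krt14 and Krt15 and the markers Cldn7, Sfn, Lgals7 and Esrp1 were not tested, since none of their probe sets with 1 symbol had a mean of 50 in any group. Trp63, Epcam and Cdh1 were named after their values were seen, and Trp63 lost its call without DMSO array 1 or DMSO array 2 (adjusted p up to 0.0798). The part of epithelial cells in the falls of Gjb2 and the other members was not tested. In the other marker lists 1 gene passed in each of 3: Pf4 of macrophages fell (-0.62 ± 0.15), Gap43 of Schwann cells and neurons fell (-0.70 ± 0.15) and Lpl of adipocytes rose (0.54 ± 0.12). All 3 calls were lost without any of the DMSO arrays 1, 2 and 3 (adjusted p up to 0.15). Lpl lost its call also without LY294002 array 3 or SB202190 array 2, and Pf4 without LY294002 array 1, 2 or 3, SB202190 array 2 or 3, or TSA array 1 or 2. Markers of fibroblasts (12 tested), osteoblasts (5), skeletal muscle (14), osteoclasts (2) and endothelium (3) had 0 genes past the pooled limma test, and 3, 0, 0, 0 and 1 in that order had an unadjusted p under 0.05. The summed signal of the osteoblast markers was 2162 to 2451 under LY294002, 2820 to 3209 under UO126 and 930 to 1416 under SB202190. In DMSO cultures that sum was 2253 to 2648.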

How the data were processed

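Primary chondrocyte RNA was hybridised to Affymetrix mouse MOE 430 2.0 arrays, and the signal intensities were deposited by the authors after MAS5 summary (named in the submitters' processing notes), each array scaled to a trimmed mean of 150 (2% trimmed at each end). Signals were floored at 1 and log2 transformed, 64 control probe sets were left out of 45101, and 21765 probe sets with a mean of 50 or more in at least 1 of 5 groups were tested with limma 3.58.1 (R 4.3.3), in 1 model over the 15 arrays with a variance trend. P-values are two-sided, adjusted by Benjamini-Hochberg over all tested probe sets, with a threshold of 0.05. A gene is its brightest tested probe set with 1 symbol, from GEO's array annotation (11751 genes). Pooled means the average of the 3 inhibitor groups minus DMSO. The genes named were the 12 per direction with the largest smallest change among those called under all 3 inhibitors, filled from the genes that moved the same way, together with list members by fixed order and the 4 genes that the study selected. The other members called under all 3 are described as well. The members and lists were chosen with earlier results of these data known. Promoters came from RefSeq (GRCm38.p6). The fit was tested on simulated data. Alternatives were scaling, filters, floors, the spread model, groups left out, a replicate block and arrays left out. The methods describe 3 independent experiments for DMSO and LY294002, and the sources used here do not say this of UO126 and SB202190.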

Additional observations from a re-analysis of the deposited data

Results flagged for a closer look

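For 6 of the genes called under all 3 kinase inhibitors, the size of the change differed among the inhibitors (limma's moderated F test over the 3 inhibitor groups, with the spread estimated over all 15 arrays). Il1rn had the smallest adjusted p, 7.39e-05, with log2 changes of -0.88 under LY294002, -1.83 under UO126 and -0.55 under SB202190. Has2 had an adjusted p of 0.000412, with -0.69, -0.70 and -1.41 in the same order. Nnat had 0.00302, with 1.54, 1.496 and 0.70. Il13ra1 had 0.0251, with -0.63, -1.27 and -0.70. Adamts9 had 0.0323, with 1.34, 0.69 and 0.92. Pag1 had 0.0457, with 0.70, 0.52 and 0.97. The share of all genes that passed this test was 15.2%. Groups of 3 arrays were too small for a test of single outlying arrays.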

How the results depend on the processing

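The pooled comparison called 370 genes with all arrays. It called 239 with no filter on low signals, 26 with the 9 inhibitor arrays as 1 group, and 173, 663 and 576 without the LY294002, the UO126 or the SB202190 group. Leaving out 1 array gave 120 (without DMSO array 3) to 371 genes. Genes called under all 3 inhibitors numbered 28, against 16 with no filter and 10 (without DMSO array 3) to 30 with 1 array left out. With replicate number as a block, which the labels do not explain, the pooled count was 741 and the count under all 3 was 69, with all 28 members among them. Of 9 inhibitor and DMSO pairs of the same number, 8 had deviations that correlated over 0.1 (lowest 0.095, highest 0.425), so the numbers were not taken as pairs, although 12 of 12 arrays correlated best with their own number, a hint from the data. The pooled change of Myl9 was -0.00964 without the UO126 group (adjusted p = 0.961). Of 56 named genes past the pooled test, treating the 9 arrays as 1 group ended 34 calls, and leaving out DMSO array 2 or DMSO array 3 ended 19 or 18. The cause was not tested. With probe sets averaged per gene, 23 of 31 lists had the same counts. In the other lists 1 fatty acid, 1 S phase and 2 prostaglandin genes fell, 2 autophagy genes, 2 TGF-beta and BMP genes and 1 Wnt gene rose, and 0 proteases and 0 study genes rose while 1 of each fell. A mean signal of 100 as a filter left 49 of the 56. The 1-group fit gives no value for single inhibitors, and 12 arrays alone give none for TSA. The number of arrays and the low signal of Arc and Tcp11 limit the precision.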

Other observations

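Further genes had a pooled change of more than 2-fold with the same sign under all 3 inhibitors, without passing under each, and those below were chosen after their values were seen. With the 9 arrays as 1 group their calls were lost, with adjusted p of 0.284 for Ednrb, 0.0601 for Cav3, 0.173 for Cavin4 and 0.358 for Car3. Ednrb, the endothelin B receptor gene, had 70.6, 48.2 and 57.3 under LY294002, 85.4, 88.8 and 94.9 under UO126 and 182, 173 and 173 under SB202190, against 161, 212 and 218 in DMSO cultures. The SB202190 arrays overlapped with DMSO and the other treated arrays did not. Its pooled log2 change was -1.01 ± 0.15 (adjusted p = 0.00345 by limma, and at most 0.0298 with 1 array left out), and the change differed among the inhibitors (adjusted p = 0.000166).

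Cav3 and Cavin4 encode proteins of muscle caveolae, the small pits of the plasma membrane. Cav3 lay between 28.7 and 57.1 on the inhibitor arrays, against 95.7, 90.45 and 90.7 on the DMSO arrays (-1.19 ± 0.23, adjusted p = 0.0127). It lost its call without DMSO array 1, 2 or 3 (adjusted p up to 0.0678). Of its group means only that of DMSO (92.3) reached the minimum of the signal filter. Those under LY294002, UO126, SB202190 and TSA were 40.4, 48.1, 35.4 and 5.64. Cav3 was thus tested only through the group in which it was high. Cavin4 changed by -1.55, -0.39 and -1.12 under LY294002, UO126 and SB202190 (adjusted p = 0.0083 pooled, and 0.0547 without DMSO array 2). Of the 14 tested muscle markers 0 passed the pooled limma test, and 0 had an unadjusted p under 0.05. Car3, a carbonic anhydrase gene of muscle and fat, changed by 0.02 under LY294002, 1.39 under UO126 and 1.85 under SB202190 (pooled 1.09 ± 0.24, adjusted p = 0.0252), and lost its call without DMSO array 2 or DMSO array 3 (adjusted p up to 0.163).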
